A study of Rattus norvegicus with 10 samples.

Results

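Hes1 and 9 further genes of the Notch pathway were described in rat splenic macrophages. The study sorted these cells by flow cytometry as M2 macrophages, a class it treated as anti-inflammatory. The 10 genes listed were Hes1, Hey1, Notch1, Notch2, Notch4, Rbpj, Nrarp, Maml1, Dtx2 and Adam10, and 9 of them were present among the 9003 genes of the deposited table. Hey1 was not among them and is not analysed here. The table kept genes whose highest value was at least 1 CPM, where CPM is the number of reads scaled to a fixed library total. Hes1 had been chosen for its level in these same libraries, and the other genes had been chosen as pathway members with results of these data known. Their values are therefore given as a description. Where a gene among them is said to pass the threshold used for the whole table, this is not independent evidence of a difference.

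The 10 libraries came from 4 groups of female WKY/NCrj rats. The control group (n = 2) came from healthy rats, and the GN group (n = 2) from rats with glomerulonephritis and no cell treatment. Nephritis was induced with TF78, a mouse monoclonal IgG that binds the glomerular basement membrane. Further nephritic rats received human adipose-derived mesenchymal stem cells (ASCs) whose membranes carried the dye DiD, and their macrophages were sorted into those that had taken up dye (EV+, n = 3) and those that had not (EV-, n = 3). Dye uptake stood for transfer of extracellular vesicles (EVs), so an EV- cell was defined by absence of dye and came from a treated rat. The study used young adult rats for this model and matched their ages within its cell treatment experiments, and the labels give no age per library. Whether EV+ and EV- macrophages of 1 number came from the same rat was not given in the sources used here.

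Notch receptors are cut at the cell surface when a ligand on a neighbouring cell binds them, and the freed intracellular part moves to the nucleus. There it joins the DNA-binding protein RBPJ and a Mastermind protein, and target genes such as Hes1 are transcribed. HES1 is a short-lived repressor that binds N boxes in DNA, its own promoter included, and it is known to restrain inflammatory gene expression in macrophages. Hes1 is also known to respond to signals other than Notch.

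The promoters of Hes1 and Nrarp are shown because both genes are known direct targets of Notch, and Hes1 carried the largest differences among the 9 genes. The sequences are from RefSeq on the GRCr8 build and run 5′ to 3′ on the strand of the gene, over the 250 bases before the start site. Capitals mark matches on either strand to TGGGAA, the core of the RBPJ site, and to CACNAG, the N box.
Hes1, chr11:84213046-84213295, minus strand: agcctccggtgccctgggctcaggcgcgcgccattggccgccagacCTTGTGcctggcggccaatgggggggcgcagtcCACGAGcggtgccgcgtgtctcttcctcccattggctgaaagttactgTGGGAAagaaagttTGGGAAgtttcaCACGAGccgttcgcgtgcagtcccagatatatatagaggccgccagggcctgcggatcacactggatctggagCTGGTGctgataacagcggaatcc
Nrarp, chr3:28390495-28390744, plus strand: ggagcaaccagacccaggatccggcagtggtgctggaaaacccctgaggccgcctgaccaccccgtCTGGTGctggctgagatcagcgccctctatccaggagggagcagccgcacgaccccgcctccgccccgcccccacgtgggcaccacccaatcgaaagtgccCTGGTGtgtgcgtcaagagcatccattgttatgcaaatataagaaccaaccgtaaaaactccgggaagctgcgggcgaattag

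The Hes1 promoter held 2 RBPJ cores, which began 123 and 109 bases before the start site, and 4 N boxes. The upstream core was part of GTGGGAA, a longer form of the site, which overlaps TGGGAA by construction. The Nrarp promoter held 2 N boxes and no match to TGGGAA in this window. Windows from 250 bases before to 50 after the start site were given for 9 of the 10 genes, with 2 windows for Rbpj. An RBPJ core was found for 4 of these 9 genes (Hes1, Notch4, Rbpj and Dtx2), and Hes1 was the 1 gene with the longer form. An N box was found for 5 of them (Hes1, Nrarp, Notch1, Notch4 and Dtx2). Of all 33469 rat windows, 25.7% held TGGGAA, 6.29% held GTGGGAA and 43.1% held CACNAG, so the short motifs are common and a match is a match of letters alone.

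**Figure D1:**
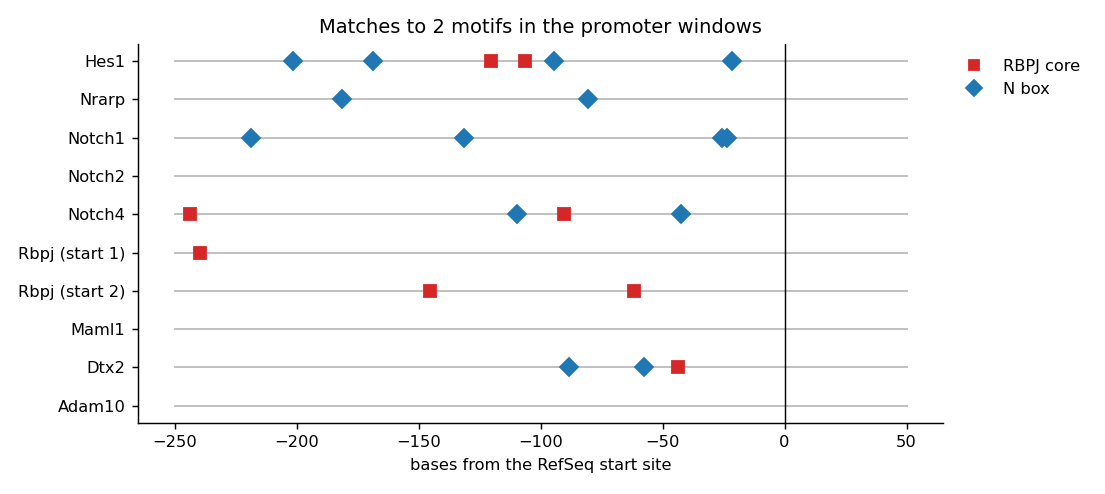
Positions of matches to the RBPJ core (squares) and the N box (diamonds) on either strand, in bases from the RefSeq start site, in the 10 promoter windows of 9 genes. Hes1 had 2 RBPJ cores and 4 N boxes, while the windows of Notch2, Maml1 and Adam10 had no match to either.

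Values are CPM after TMM normalization, a scaling that equalizes most genes between libraries, and each library held between 19270515 and 26617093 counted reads. A level of 3 reads corresponded to between 0.113 and 0.153 CPM. Csf1r, the receptor for the macrophage growth factor, ranged from 5800 to 8155 CPM, and 10 of 12 macrophage markers were in the table. Among these, Cd163 and Mrc1, which are markers often used for M2 macrophages, were low, with group means of 0.146 to 1.26 CPM and 0.246 to 0.905 CPM, and each was at 0 in some libraries. Their highest values in a library were 1.81 CPM each. The summed macrophage markers were 24526 to 24819 CPM in control and 28670 to 30836 CPM in the other libraries. Most of each sum was Lyz2, with group means of 15719 CPM in control and 19127 to 19720 CPM in the other groups. Csf1r, Adgre1, Itgam and Cd14 also had their lowest group mean in control. Cd68 did not, with means of 1345 CPM in control and 1247 to 1343 CPM in the other groups. The 10 detected markers of NK and T cells summed to 558, 85.4 and 41.5 CPM in the EV- replicates and to between 14.3 and 31.7 CPM in all other libraries.

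Hes1 was highest in control macrophages, lower in GN and lowest in macrophages of ASC-treated rats. Its level was 135 and 138 CPM in the controls, and GN held 53.1 and 66.4 CPM. It was 33.8, 32.8 and 28.7 CPM in EV+ replicates 1 to 3 and 40.4, 37.2 and 41.1 CPM in EV- replicates 1 to 3. The 4 groups did not overlap at any step of the order control, GN, EV-, EV+. These values rested on 643 to 3501 reads per library. The means were 136 ± 2.25 CPM in control (SD, n = 2), 59.7 ± 9.41 CPM in GN (SD, n = 2), 31.8 ± 2.72 CPM in EV+ (SD, n = 3) and 39.6 ± 2.12 CPM in EV- (SD, n = 3). In a sorted bulk sample, fewer cells with a transcript and less of it per cell cannot be told apart.

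Relative to control, Hes1 stood at 43.8% in GN, 29.0% in EV- and 23.3% in EV+. Differences below are on the log2(CPM + 1) scale, from 1 limma fit over all libraries that did not pair EV+ and EV- libraries. The difference of GN from control was -1.19 (SE 0.127), with a 95% confidence interval of -1.46 to -0.91. That of EV+ from GN was -0.88 (SE 0.116, interval -1.13 to -0.64), and that of EV- from GN was -0.57 (SE 0.116, interval -0.82 to -0.32). These 2 differences share the GN libraries. Between the sorted fractions of treated rats, EV+ lay below EV- by a smaller amount, with a difference of -0.31 (SE 0.104, interval -0.53 to -0.09). Each step down from control therefore came with a smaller difference between neighbouring groups.

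Among the 7193 genes with a mean of at least 5 CPM, Hes1 had the 4th lowest difference of GN from control. It was 14th lowest for EV+ against GN, 65th for EV- against GN and 140th for EV+ against EV-. Leaving out EV- replicate 1, the library with the most NK and T cell transcripts, gave -0.59 for EV- against GN and -0.29 for EV+ against EV-. EV- replicates 2 and 3 still held more of these transcripts (85.4 and 41.5 CPM) than any library of the other groups (at most 31.7 CPM). The part of NK and T cells in the Hes1 values was not tested. Without GN replicate 2, where Hes1 was the higher of the GN values, the differences from GN were -0.73 in EV+ and -0.42 in EV-. The part of the lower macrophage marker sum of control, most of it Lyz2, in the Hes1 values was not tested.

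**Figure D2:**
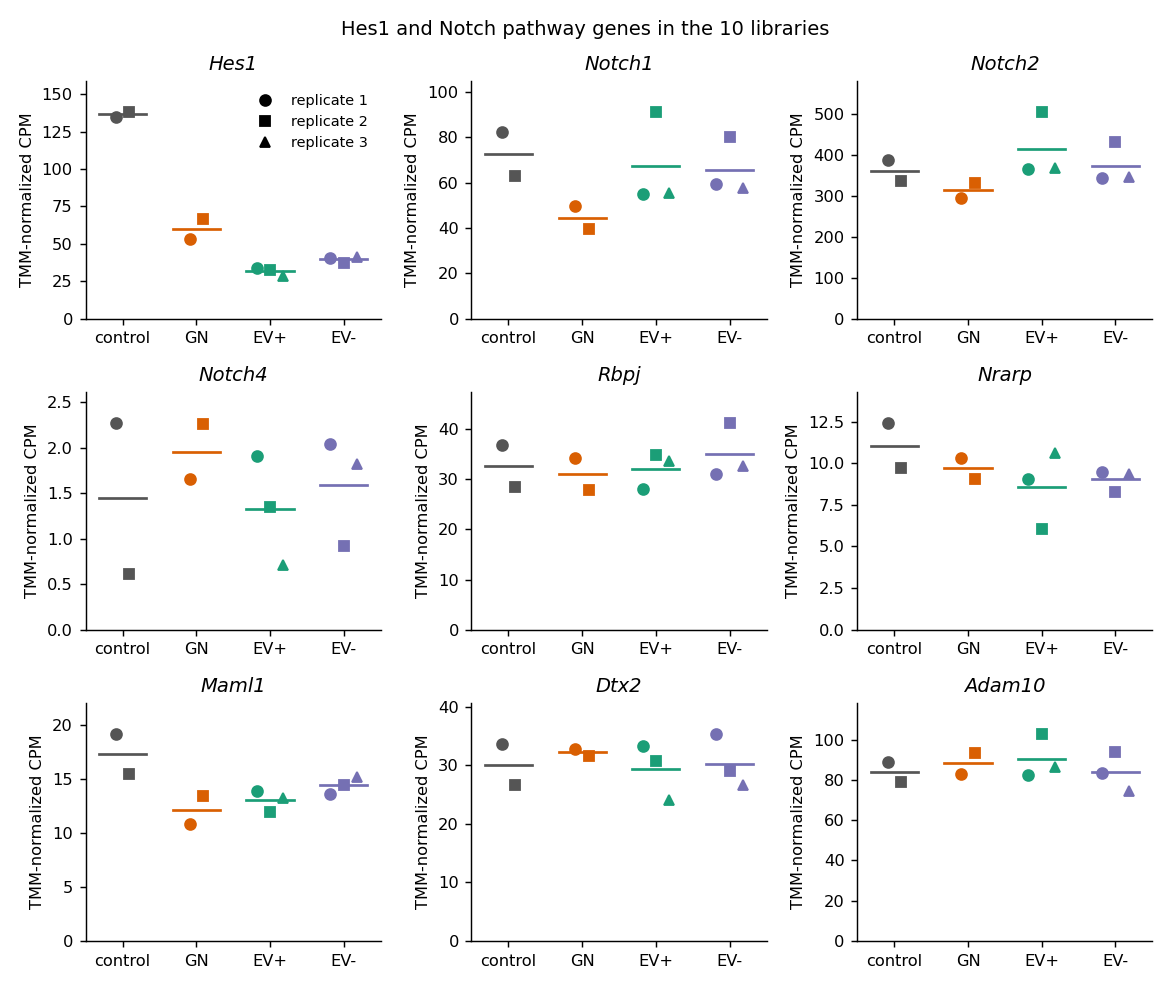
TMM-normalized CPM of the 9 genes in each library by group, with a marker shape for each replicate number and a line at the group mean. Hes1 separated all 4 groups, while replicate 2 of EV+ and of EV- held the highest Notch1 and Notch2 values of their groups.

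The groups were ordered differently for the receptors. Notch1, the receptor best known from lymphocyte development, was 82.4 and 63.0 CPM in the controls, and GN held 49.5 and 39.6 CPM. It was 54.9, 91.1 and 55.5 CPM in EV+ and 59.2, 80.0 and 57.7 CPM in EV-. GN therefore lay below every other library, and both fractions of treated rats overlapped control. The difference of GN from control was -0.69 (SE 0.227), and those from GN were 0.55 (SE 0.207) in EV+ and 0.54 (SE 0.207) in EV-. All of these share the GN libraries. EV+ and EV- differed by 0.01 (SE 0.185). Replicate 2 was highest in both fractions, and without EV+ replicate 2 the difference of EV+ from GN was 0.31. Without EV- replicate 2, the difference of EV- from GN was 0.39. With 1 library left out, that of GN from control ranged from -0.88 to -0.50.

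Notch2, a receptor required for marginal zone B cells and some splenic myeloid cells, was 388 and 335 CPM in the controls, and GN held 296 and 332 CPM. It was 367, 505 and 369 CPM in EV+ and 343, 431 and 348 CPM in EV-. GN was again below every other library, although GN replicate 2 and control replicate 2 were close. The differences from GN were 0.38 (SE 0.136) in EV+ and 0.25 (SE 0.136) in EV-, and GN differed from control by -0.20 (SE 0.149). Each of these rested in part on 1 library. Without EV+ replicate 2 the difference for EV+ was 0.23. That for EV- was 0.14 without EV- replicate 2 and 0.16 without GN replicate 1. That of GN from control was -0.10 without control replicate 1, -0.12 without GN replicate 1 and -0.31 without control replicate 2. The 5 detected B cell markers summed to between 45.1 and 111 CPM per library, most of it Cd79b, with 45.1 and 71.4 CPM in GN and 90.6 and 111 CPM in control. Their part in the Notch2 values was not tested.

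Notch4, a receptor known mainly from endothelial cells, was at 0.619 to 2.27 CPM, or 15 to 60 reads per library. Its groups overlapped in all 4 comparisons, with 2.27 and 0.619 CPM in the control replicates alone. Without control replicate 2, the difference of GN from control turned from 0.35 to -0.15. The 4 detected endothelial markers summed to 252 to 267 CPM in control, 355 to 364 in GN, 325 to 343 in EV+ and 254 to 276 in EV-. Pecam1, which macrophages also express, and Plvap made up most of these sums, and their groups were ordered differently. Mean Plvap was 94.8 CPM in control, 173 in GN, 131 in EV+ and 75.3 in EV-. Mean Pecam1 was 154, 172, 191 and 177 CPM in the same order. The sums are therefore no clear measure of endothelial cells, and the part of these markers in the Notch4 values was not tested.

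Of the nuclear partners of the receptors, Rbpj, which encodes the DNA-binding protein of the pathway, ranged from 27.9 to 41.2 CPM and overlapped between groups in all comparisons. Its group means were 32.7 ± 5.83 CPM in control, 31.1 ± 4.39 in GN, 32.1 ± 3.65 in EV+ and 35.0 ± 5.47 in EV- (SD). RefSeq lists a pseudogene named after Rbpj, so its reads are uncertain where the copies are alike. The 95% intervals of its differences reached from -0.44 to 0.50 over the 4 comparisons, and differences inside these limits could not be resolved.

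Maml1, which encodes a Mastermind coactivator, was 19.1 and 15.5 CPM in the controls, and GN held 10.8 and 13.4 CPM. It was 13.9, 11.9 and 13.2 CPM in EV+ and 13.6, 14.4 and 15.2 CPM in EV-. All other libraries were below both controls, and the difference of GN from control was -0.48 (SE 0.173, interval -0.85 to -0.11). It was -0.34 without control replicate 1 and also without GN replicate 1.

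Nrarp, a target that feeds back on the Notch complex, was 12.4 and 9.69 CPM in the controls, and GN held 10.3 and 9.08 CPM. It was 9.06, 6.02 and 10.6 CPM in EV+ and 9.48, 8.26 and 9.38 CPM in EV-. The groups overlapped in all 4 comparisons, unlike those of Hes1, the other direct target. For GN against control the interval for Nrarp was -0.66 to 0.34 and that for Hes1 was -1.46 to -0.91. For EV+ against GN they were -0.65 to 0.26 and -1.13 to -0.64. Nrarp rested on 143 to 322 reads per library. Whether the difference for Hes1 was unlike that for Nrarp was not tested.

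Dtx2, which encodes a ubiquitin ligase of the Deltex family, ranged from 24.1 to 35.3 CPM. Adam10, which encodes the protease that makes the first ligand-induced cut in the receptor, ranged from 74.3 to 103 CPM. The groups of both genes overlapped in every comparison. Their differences lay between -0.14 and 0.10 for Dtx2 and between -0.08 and 0.11 for Adam10. Over the 10 libraries the highest Adam10 level was 1.38 times the lowest, against 4.81 times for Hes1.

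**Figure D3:**
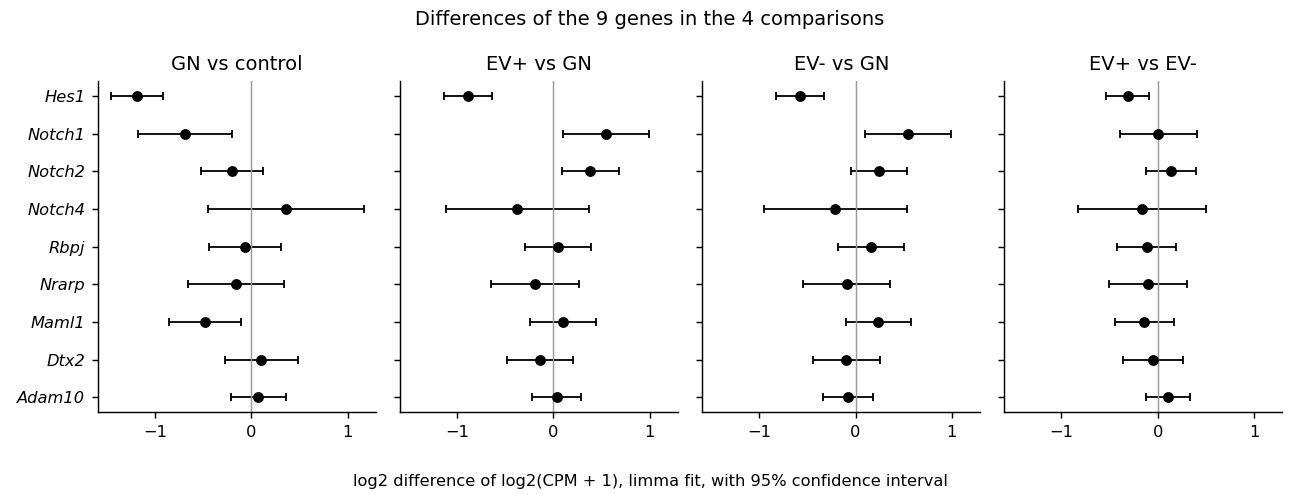
Differences of the 9 genes on the log2(CPM + 1) scale in the 4 comparisons, with 95% confidence intervals from limma. Hes1 lay below 0 in each comparison, and Notch1 lay below 0 for GN against control and above 0 for EV+ and EV- against GN.

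Hes1 was the 1 gene of the 9 past a false discovery rate (FDR) of 0.1 over the table for GN against control, EV+ against GN and EV- against GN, and no gene of the 9 passed for EV+ against EV-. Its passing for EV- against GN held in 9 of 18 alternatives. It ended with the replicate number of all groups as a block, without the intensity trend of the fit, and without any single control, GN or EV- library. For EV+ against GN it held in 16 of 18 and ended without the trend and without GN replicate 2. Over all 9003 genes, the percentages past this threshold were 1.75 (158 genes), 0.122 (11 genes), 0.378 (34 genes) and 0.0222 (2 genes) in the same order. Groups did not overlap for 4 of the 9 genes in GN against control, all with GN lower, while 43.9% of all genes did not overlap in either direction. For EV+ against GN these were 3 of 9 genes and 23.0% of all genes. For EV- against GN they were 4 of 9 and 25.4%, and for EV+ against EV- 1 of 9 and 8.91%. Nothing is read from these counts, since the genes were chosen with these data known. When the replicate number was entered as a block for EV+ and EV- alone, Notch1 also passed the FDR in the first 3 comparisons and Notch2 passed for EV+ against GN. This block was chosen after seeing the data, and with it 392, 113, 172 and 34 of all genes passed in the 4 comparisons.

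The rest of the pathway was examined with a list of 83 further genes, of which 48 were in the table. Of the 48, Id2 fell in GN relative to control and was the 1 gene past an FDR of 0.1. Over all genes 1.75% passed in that comparison, so nothing about the pathway is read from 1 gene of 48. None passed for EV+ or EV- against GN or for EV+ against EV-, where 0.122%, 0.378% and 0.0222% of all genes passed. The numbers with an unadjusted p under 0.05 were 5, 5, 8 and 0 of 48 in the 4 comparisons, and over all genes 933, 642, 707 and 411 of 9003. The median differences of the 48 were -0.03, 0.07, 0.06 and 0.02, beside medians over all genes between -0.01 and 0.00.

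Id2 encodes an inhibitor of DNA binding that pairs with other helix-loop-helix proteins and can pair with HES1. Its level was 527 and 433 CPM in the controls, and GN held 324 and 296 CPM. It was 317, 265 and 376 CPM in EV+ and 350, 340 and 451 CPM in EV-. Both GN libraries lay below both controls, and EV- reached into the control range. The difference of GN from control was -0.62 (SE 0.157, limma adjusted p = 0.0887), and the edgeR quasi-likelihood test on reads gave an adjusted p of 0.113. The call was lost without either control, either GN or EV- replicate 1, with limma adjusted p up to 0.528. With the replicate number as a block, the limma adjusted p was 0.00159.

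Of 8 ligands, Jag1 was the 1 that could be analysed, at 3.70 and 1.57 CPM in control, 1.46 and 3.16 in GN, 4.14, 3.66 and 5.98 in EV+ and 5.44, 1.33 and 6.11 in EV-. EV+ lay above GN with a difference of 0.78 (SE 0.431, limma adjusted p = 0.792), within the spread of so low a gene. The receptor Notch3 was not analysed here. The ligands are membrane proteins of the signal-sending cell, which need not be the sorted macrophage.

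Of the genes that modify or cut the receptors, 7 of 8 sugar-adding enzymes and 7 of 8 proteases or their subunits were present, and none passed the test in any comparison. The fringe enzymes Lfng and Mfng, which set ligand preference, had group means of 52.0 to 57.0 CPM and 142 to 167 CPM. Furin, which cuts the receptor during its maturation, had means of 347 to 381 CPM, and Ncstn, a subunit of gamma-secretase, 336 to 399 CPM. Aph1a, another subunit, had a mean of 66.4 CPM in control and 86.9 CPM in GN, a difference of 0.38 (SE 0.112, limma adjusted p = 0.159), and passed an FDR of 0.1 with DESeq2 and with the block of EV+ and EV-. Aph1a and Mib2 below were named after their values were seen.

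Of 17 genes for trafficking and ubiquitination, 10 were present and none passed. Mib2, a ubiquitin ligase that acts on ligands, had means of 6.49 CPM in GN and 12.3 CPM in EV+, a difference of 0.81 (SE 0.200, limma adjusted p = 0.297). Nedd4l and Wwp2, ligases of the NEDD4 family, had means of 137 to 148 CPM and 180 to 205 CPM. Of 7 coactivators 4 were present, with Crebbp at 102 to 125 CPM and Snw1 at 48.4 to 52.0 CPM, and none passed.

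Corepressors hold RBPJ targets silent in the absence of a Notch signal or act with HES1. Of 16 listed, 11 were present and none passed the test, but all 11 had a lower mean log2 level in GN than in control, and each treated group had a higher mean than GN in all 11, comparisons that share the GN libraries. Their median differences were -0.18, 0.12 and 0.13. How many of all genes share this pattern was not counted, so nothing is read from it. Ctbp1 and Kdm5a had means of 188 to 201 CPM and 176 to 207 CPM.

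Of 13 other targets, 4 could be analysed (Hes6, Myc, Ccnd1 and Cdkn1a), and none passed. Cdkn1a, a cell cycle inhibitor, had means of 12.5 ± 2.92 CPM in control and 8.42 ± 0.193 CPM in GN (SD, n = 2 each). Ccnd1, named after its values were seen, went the other way, with means of 2.63 CPM in control and 5.52 CPM in GN. These groups overlapped, and the difference was 0.83 (SE 0.409, limma adjusted p = 0.514). Its means were 2.89 CPM in EV+ and 2.11 CPM in EV-. Of the 4 targets, 2 had a higher and 2 a lower mean in GN than in control. Hes6, a member of the HES family, had means between 3.21 and 4.63 CPM. Bhlhe40, a related helix-loop-helix repressor, had means between 569 and 630 CPM.

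**Figure D4:**
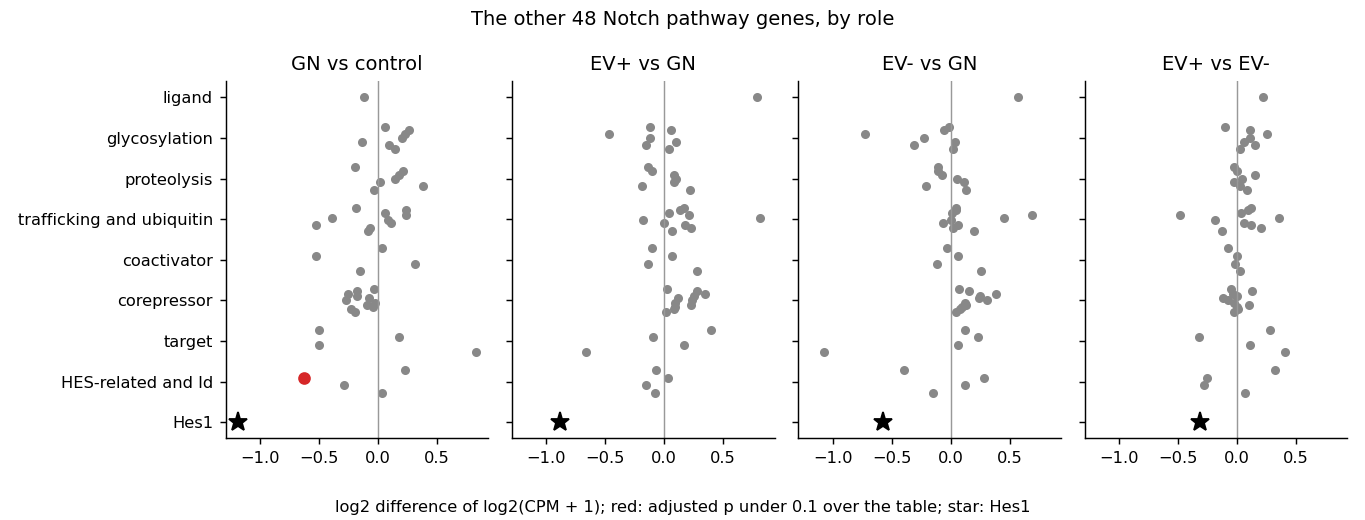
Differences of the other 48 pathway genes by role on the log2(CPM + 1) scale (dots), with Hes1 as a star and adjusted p under 0.1 in red. Id2 for GN against control is the single red dot, and the 11 corepressors lie left of 0 for GN against control and right of 0 for EV+ and EV- against GN.

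The genes whose levels over the 10 libraries most resembled those of Hes1 were not Notch pathway genes. After each of 7177 genes with a named symbol and a mean of at least 5 CPM was centred on its own mean, the distance from Hes1 was the root mean square of the log2 differences. The 8 nearest were Ccl3 (0.227), Atf3 (0.237), Niacr1 (0.262), Zfp36 (0.269), Jund (0.306), Ppp1r15a (0.327), Fos (0.346) and Rhob (0.373), against a median distance of 0.778. Ccl3 encodes a macrophage chemokine, Niacr1 the receptor for niacin, and Zfp36 a protein that destabilizes inflammatory mRNAs. Atf3, Jund and Fos encode transcription factors, Ppp1r15a a phosphatase subunit of the stress response, and Rhob a small GTPase.

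Mean Ccl3 was 694 CPM in control, 325 in GN, 196 in EV+ and 214 in EV-, and mean Atf3 was 134, 71.6, 43.5 and 49.7 CPM. All 8 genes were highest in control and lower in both treated groups than in GN. These genes were picked for their likeness, the libraries are shared, and no test is given.

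Of the 8, 5 (Atf3, Zfp36, Jund, Ppp1r15a and Fos) stood on a list of 23 immediate early genes, which are induced within minutes of stimulation or cell handling. The list had 22 genes in the table, summing to 25992 to 31101 CPM in control, 19010 to 20926 in GN, 12819 to 14456 in EV+ and 13464 to 14961 in EV-. Of the 22, 7 fell in GN relative to control, 3 in EV+ relative to GN and 5 in EV- relative to GN (limma FDR under 0.1), and none passed between EV+ and EV-. Over all genes 1.75%, 0.122%, 0.378% and 0.0222% passed in either direction. The median differences of the 22 were -0.56, -0.56, -0.54 and -0.04. The summed level of the list, like Hes1, was highest in control, lower in GN and lowest in the treated groups, and its part in the Hes1 values was not tested.

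**Figure D5:**
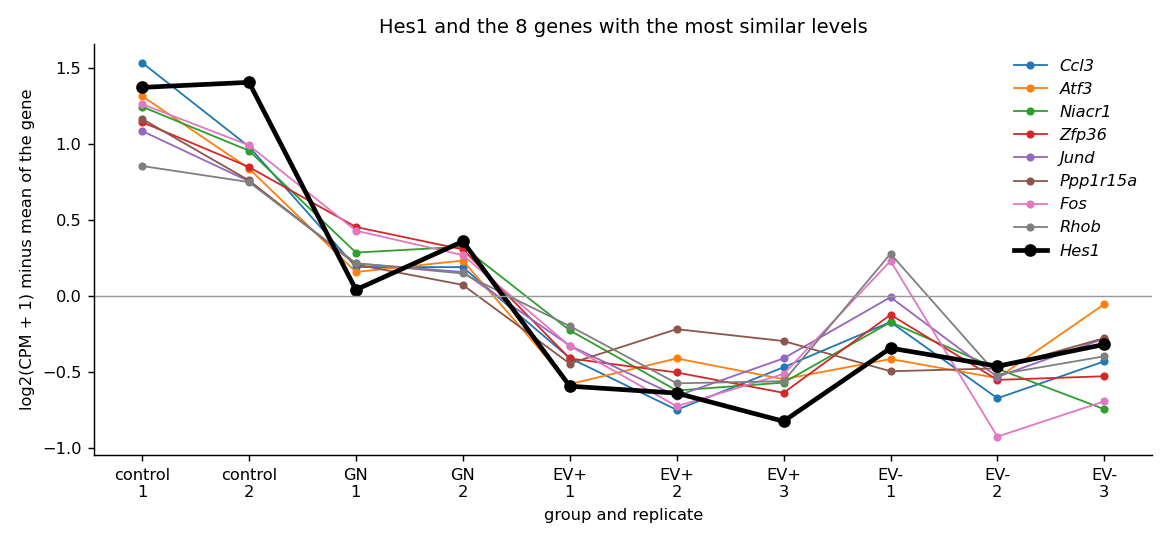
Level of Hes1 (thick line) and of the 8 genes nearest to it in each library, as log2(CPM + 1) minus the mean of the gene over the 10 libraries; lines join libraries for reading only. All genes were highest in the 2 controls, and Hes1 ran from 1.37 and 1.40 there to -0.82 in EV+ replicate 3.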

How the data were processed

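RNA of sorted splenic macrophages was amplified with SMART-Seq v4, made into Nextera XT libraries and sequenced in pairs on a NovaSeq instrument. This kit does not mark strand, so reads of overlapping genes cannot be told apart. The authors aligned reads to rn6 with STAR (version 2.5.3), counted them on RefSeq genes with HTSeq (version 0.6.0), removed genes with a maximum under 1 CPM and applied TMM normalization in edgeR. The deposited signal is TMM-normalized CPM per gene, and dividing by the worth of 1 read gave whole reads for 100% of values (tolerance 0.01). Symbols of 18 rows had turned into dates and were not named.

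The labels gave each library its group, and the study calls its replicates biological. The test was limma (version 3.58.1, R version 4.3.3) with an intensity trend on log2(CPM + 1), in 1 fit of 4 groups with 6 residual degrees of freedom and Benjamini-Hochberg FDR over 9003 genes, tested on simulated data first. Because the deposited unit is CPM, limma was chosen where the study had used edgeR's generalized linear model. On the recovered reads, the quasi-likelihood test of edgeR (version 4.0.16) called 147, 9, 36 and 2 genes for GN against control, EV+ against GN, EV- against GN and EV+ against EV-, and DESeq2 (version 1.42.0) was also run. Replicates differed by a chi-square of 13.4 to 45.0 per degree of freedom, highest between EV+ replicates 1 and 2, so none was a copy.

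Same-numbered EV+ and EV- libraries deviated together from their group means over genes (correlations 0.203, 0.295 and 0.122). These numbers were taken as pairs in the alternative with a block of EV+ and EV-. The correlation was 0.0878 for control and GN, whose numbers were not taken as pairs. The main fit held no pairs, so its differences between EV+ and EV- treat the libraries as independent. The labels do not state the pairs, and the source of the correlations was not tested. Genes, lists, motifs and alternatives were chosen with earlier results of these data known. Named were the 10 listed genes, pathway genes called in any comparison, the 2 of each pathway list with the highest mean, and the 8 genes nearest to Hes1. Alternatives changed the test, scaling, pseudocount, filter, trend, block, threshold or left out 1 library. Promoter windows came from RefSeq on GRCr8, and no coordinates on rn6 are given. Counting floors cover counting error only. Values of 1 pathway gene are not reported here.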

Additional observations from a re-analysis of the deposited data

How the results depend on the processing

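Over 18 alternatives, Hes1 stayed lower in GN than in control (-1.35 to -1.03), in EV+ than in GN (-1.04 to -0.73) and in EV- than in GN (-0.73 to -0.42), and it passed an FDR of 0.1 in 18, 16 and 9 of them. For EV+ it did not pass without the intensity trend or without GN replicate 2, and for EV- it did not pass with the replicate block, without the trend, or without any single control, GN or EV- library. Of 648 recomputed differences of the 9 genes, 632 moved by less than 1 SD between replicates and 16 moved by more. Many settings, such as leaving out a library of another group, cannot change a difference, so the 632 do not measure stability. A reversal was counted only for differences past the FDR in the main fit, all of Hes1, and there were 0. Other differences could change sign, as Notch4 did for GN against control (0.35 to -0.15 without control replicate 2). For all genes the counts past the FDR were 158, 11, 34 and 2 in the order GN against control, EV+ against GN, EV- against GN and EV+ against EV-. They were 294, 41, 113 and 34 with DESeq2, and 60, 0, 6 and 0 without the intensity trend. With the replicate block they were 205, 30, 53 and 5, and with the block of EV+ and EV- alone, chosen after seeing the data, 392, 113, 172 and 34. An FDR under 0.05 left 97 and 21 genes in the first and the third, and a pseudocount of 0.1 gave 4 genes in the fourth. With 1 library left out the counts were 34 to 214, 0 to 18, 7 to 42 and 0 to 5. The first was lowest without GN replicate 1 (34), GN replicate 2 (41), control replicate 2 (75) and control replicate 1 (87), and the second was 0 without GN replicate 2. The other pathway genes called for GN against control (1 gene) numbered 0 with edgeR, without the trend and at an FDR under 0.05, 2 with DESeq2 and with the block of EV+ and EV-, and 0 to 2 with 1 library left out. They numbered 1 with DESeq2 for EV+ against GN and 1 with the block of EV+ and EV- for EV- against GN, against 0 otherwise. Notch1 passed for GN against control with DESeq2, with the block of EV+ and EV- and without EV+ replicate 2. The causes of these shifts were not tested. Notch4, at 15 to 60 reads, had 59 and 15 reads in the controls, so its spread between replicates as well as its depth limits what can be said of it.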
